A study of Mus musculus with 6 samples.

Results

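Tetraspanins are small proteins that cross the cell membrane several times and gather integrins, receptors, proteases and signalling proteins into shared patches of membrane and into secreted vesicles. In B cells Cd81 helps to organise receptors at the surface, and Cd37 and Cd53 are found on most leukocytes. Members of the TspanC8 branch carry the protease Adam10 out of the endoplasmic reticulum and so bear on the shedding of surface proteins.

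The family was taken as all genes of the expression table whose symbol is Tspan followed by a number, together with Cd9, Cd37, Cd53, Cd63, Cd81, Cd82, Cd151, Upk1a and Upk1b. This gave 28 genes out of 19938 tested. The members were chosen by symbol, and the probe set of a gene by the highest measured mean over the 6 arrays, but each of the 28 genes had just 1 single-gene probe set, so that step removed none. The family was taken up because the fall of Tspan6 was already known, so the values of Tspan6 are given as a description, with no test, and it is left out of the counts of genes that passed. The other members came in by symbol. The family as a whole was taken up with earlier results of these data known, so their calls are not independent tests. Tspan7 was not analysed here.

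All 6 arrays held total RNA of BCR-ABL1 transformed pre-B cells of mouse strain 129P2/OlaHsd, a model of acute lymphoblastic leukaemia driven by the BCR-ABL1 kinase. The labels give all of them the genotype Ptpn6 +/fl, that is 1 floxed and 1 unfloxed allele of the gene of the phosphatase SHP-1, and 2 days of 4OH-Tamoxifen at 0.5 micromolar. The 3 arrays of the first group came from cells transduced with PMIP-ERT2, a vector with the tamoxifen-binding receptor domain alone. The 3 arrays of the second group came from cells with PMIP-CRE-ERT2, in which the same domain is joined to Cre recombinase, so the unfloxed allele would remain in these cells. The series title asks what Ptpn6 does in such cells. Whether replicate arrays stand for separate cultures or mice is not stated in the labels, so p-values cover only the variation among these arrays, part of which may be technical. Cre itself, any loss of 1 Ptpn6 allele and any other difference between the transduced cells of the groups cannot be told apart. The vector is named in the labels as the only difference.

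Array medians lay between 7.90 and 7.98 on the log2 scale. Ptpn6 had values of 11.25, 11.39 and 11.39 with ERT2 and 11.36, 11.25 and 11.20 with CRE-ERT2, which overlap, so the targeted gene does not check the labels here and the groups are named as labelled. The 11 pre-B cell markers measured included Pax5, Ebf1, Igll1 and Cd79a. All 11 lay above the limit of 7.37 under which the dimmest share (0.333) of genes falls. Of the measured markers of other cells, 3 of 7 for T cells, 3 of 10 for myeloid cells, 2 of 4 for megakaryocytes or platelets, 2 of 4 for erythroid cells and 4 of 7 for stromal fibroblasts lay above that limit, and 0 of these passed the test between groups. An array value has no true zero and detection calls were not used here, so none of these markers can be called absent. In bulk RNA, fewer cells with a transcript and less transcript per cell cannot be told apart.

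Tspan6 was far lower in the arrays labelled CRE-ERT2, by 3.82 on the log2 scale. Among the other 27 tetraspanin genes 1 was lower (Cd53) and 2 were higher (Cd82 and Upk1b) at an adjusted p under 0.05 with limma, and 24 did not pass. Over all genes tested 4.58% passed, 2.30% higher and 2.28% lower. Because the family was taken up with results in view, nothing is read from its own share. The median log2 change of the 28 genes was -0.02, against -0.03 over all genes, and 13 of the changes lay above 0 and 15 below. Over all genes tested 7762 lay above 0 and 12176 below. The groups did not overlap for 7 of the 27 genes other than Tspan6, against 22.5% of all genes.

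**Figure D1:**
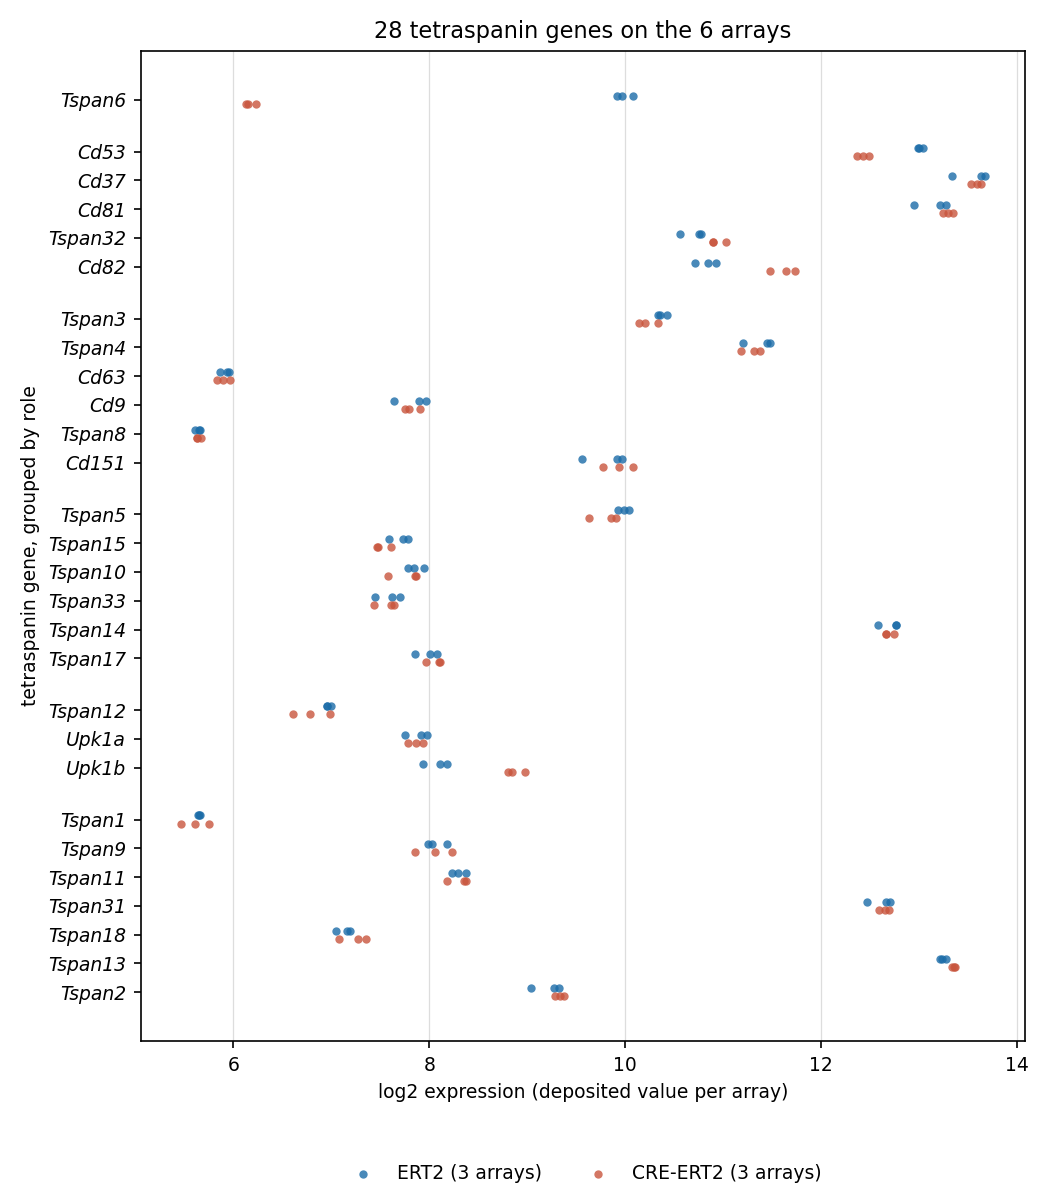
Deposited log2 expression (x axis) of the 28 tetraspanin genes (y axis, grouped by role) on the 3 ERT2 arrays (blue) and the 3 CRE-ERT2 arrays (red), 1 point per array. The points of Tspan6 lie near 10.0 with ERT2 and near 6.17 with CRE-ERT2, while those of most other genes overlap; levels of different genes come from different probe sets and are not to be compared.

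Tspan6 is a tetraspanin of endosomes and the cell surface that has been described as a brake on antiviral RIG-I-like receptor signalling. Its log2 expression was 9.92, 10.08 and 9.97 on the 3 ERT2 arrays. It was 6.12, 6.15 and 6.23 on the 3 CRE-ERT2 arrays. All arrays of each group lay close together, and the gap between the groups was many times the spread within them. The means were 9.99 ± 0.08 (SD, n = 3) and 6.17 ± 0.06 (SD, n = 3), a log2 change of -3.82. On the linear scale this was a 14.1-fold lower level. In absolute size it ranked 1 among the 19938 genes. The CRE-ERT2 values lay under the limit of 7.37 for the dimmest genes, where array signals are compressed, so the size of the fall may be understated.

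The stretches of DNA just before the start sites of Tspan6 and Cd53, the members that were lower, are shown for the reader because each has a single start in the RefSeq promoter table. The table holds entries for 26 of the 28 members, and Upk1b is not among them. Both stretches are the 250 bases before the start, 5′ to 3′, in build GRCm38.p6. Tspan6 lies on the minus strand at chrX:133898430-133898679 and Cd53 on the minus strand at chr3:106790150-106790399. Capitals mark a match to 1 of 4 searched motifs.
Tspan6: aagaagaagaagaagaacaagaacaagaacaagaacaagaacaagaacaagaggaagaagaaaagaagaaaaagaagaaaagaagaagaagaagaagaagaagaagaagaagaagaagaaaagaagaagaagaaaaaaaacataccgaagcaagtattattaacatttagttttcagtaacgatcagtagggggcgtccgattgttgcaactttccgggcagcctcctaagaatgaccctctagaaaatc
Cd53: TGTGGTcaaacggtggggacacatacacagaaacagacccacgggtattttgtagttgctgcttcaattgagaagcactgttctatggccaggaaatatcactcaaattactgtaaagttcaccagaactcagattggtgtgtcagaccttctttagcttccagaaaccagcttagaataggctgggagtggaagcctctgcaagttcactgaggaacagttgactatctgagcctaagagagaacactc

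The far part of the Tspan6 stretch is a run of repeated GAA units. Purines made up 75.6% of its 250 bases, against 54.0% for Cd53. The Tspan6 share was higher than in 99.9% of 32851 promoters of the same length. It was looked at with the fall of Tspan6 known, so the rank only describes the repeat. The motifs searched on both strands were TTCNNNGAA (STAT core), CACGTG (E-box), CCGGAAG (ETS core) and TGTGGT (RUNX core), and no motif contains another. They occur in 7.02%, 6.02%, 6.91% and 14.0% of all these promoters. Cd53 held 1 match to the RUNX core, whose first base lies 250 bases before the start, and Tspan6 held 0 of the 4. These are matches of letters in a window, not binding sites.

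On the GRCm38.p6 gene order the 3 nearest measured genes on either side were Gm4994 (log2 change 0.11), Pcdh19 (0.03), Tnmd (-0.03), Srpx2 (-0.00), Sytl4 (-0.02) and Cstf2 (-0.16). None of these 6 neighbours passed the test. For Tspan6, Cd53, Cd82 and Upk1b together, 24 such neighbours were looked at after the members' values were known, and 0 passed (smallest adjusted p = 0.0957 with limma, AI504432 beside Cd53). Over all genes tested 4.58% passed, so 0 of 24 is near that share and nothing is read from it. Some members lie next to or near each other on a chromosome. Tspan18 borders Cd82 and had a difference of 0.10, and Cd82 one of 0.79. Tspan32 and Cd81, with 1 measured gene between them, had 0.25 and 0.15. Cd151 and Tspan4, also with 1 measured gene between them, had 0.12 and -0.08, and the neighbours Tspan11 and Tspan9 had 0.00 and -0.02. Of these 8 genes only Cd82 passed.

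The tetraspanins best known from leukocytes went different ways. Of the 5 measured, 1 fell, 1 rose and 3 did not pass, where 4.58% of all genes passed. Cd53, a pan-leukocyte tetraspanin that has been linked to interleukin-7 receptor signalling in early B cells, had values of 13.00, 12.98 and 13.04 with ERT2. With CRE-ERT2 its values were 12.49, 12.42 and 12.36, all below those of the other group. The mean fell from 13.01 ± 0.03 to 12.42 ± 0.07 (SD, n = 3 each), a log2 change of -0.58 (95% confidence interval -0.74 to -0.43) or 1.5-fold (limma adjusted p = 0.000312). Il7r, the interleukin-7 receptor gene among the pre-B markers, fell on the same arrays by 0.43 on the log2 scale (limma adjusted p = 0.00349). Of the 11 pre-B markers 2 fell (Il7r and Rag2, by 0.53), 1 rose (Dntt, 0.48) and 8 did not pass, among them Rag1 (-0.11, limma adjusted p = 0.614). The summed log2 level of the 11 markers was 131.3 to 132.2 with ERT2 and 131.4 to 132.1 with CRE-ERT2. In such a sum rises and falls of single markers cancel, so it does not show an equal stage. The part of these cells' stage in the change of Cd53 was not tested.

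Cd82, also called Kai1, is known as a suppressor of metastasis and is found in endosomes and at the surface of lymphocytes. Its values were 10.71, 10.85 and 10.93 with ERT2. With CRE-ERT2 they were 11.74, 11.64 and 11.48, so every CRE-ERT2 array was above every ERT2 array. The mean rose from 10.83 ± 0.11 to 11.62 ± 0.13 (SD, n = 3 each), a log2 change of 0.79 (95% confidence interval 0.60 to 0.98), or 1.73-fold (limma adjusted p = 0.000142).

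Tspan32, a tetraspanin of blood cells also named Tssc6, had 10.56, 10.77 and 10.75 with ERT2 and 11.02, 10.90 and 10.90 with CRE-ERT2. The groups did not overlap, but the difference of 0.25 (0.07 to 0.42) did not pass over all genes (limma adjusted p = 0.118). Cd81 and Cd37 overlapped between the groups. Cd81, a broadly expressed tetraspanin of lymphocytes, had 12.95, 13.21 and 13.28 with ERT2 and 13.34, 13.30 and 13.25 with CRE-ERT2, a difference of 0.15 (-0.04 to 0.35, limma adjusted p = 0.464). Cd37, which restrains B cell growth signals, had 13.33, 13.67 and 13.63 against 13.63, 13.59 and 13.53, a difference of 0.04 (-0.16 to 0.24, limma adjusted p = 0.920).

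**Figure D2:**
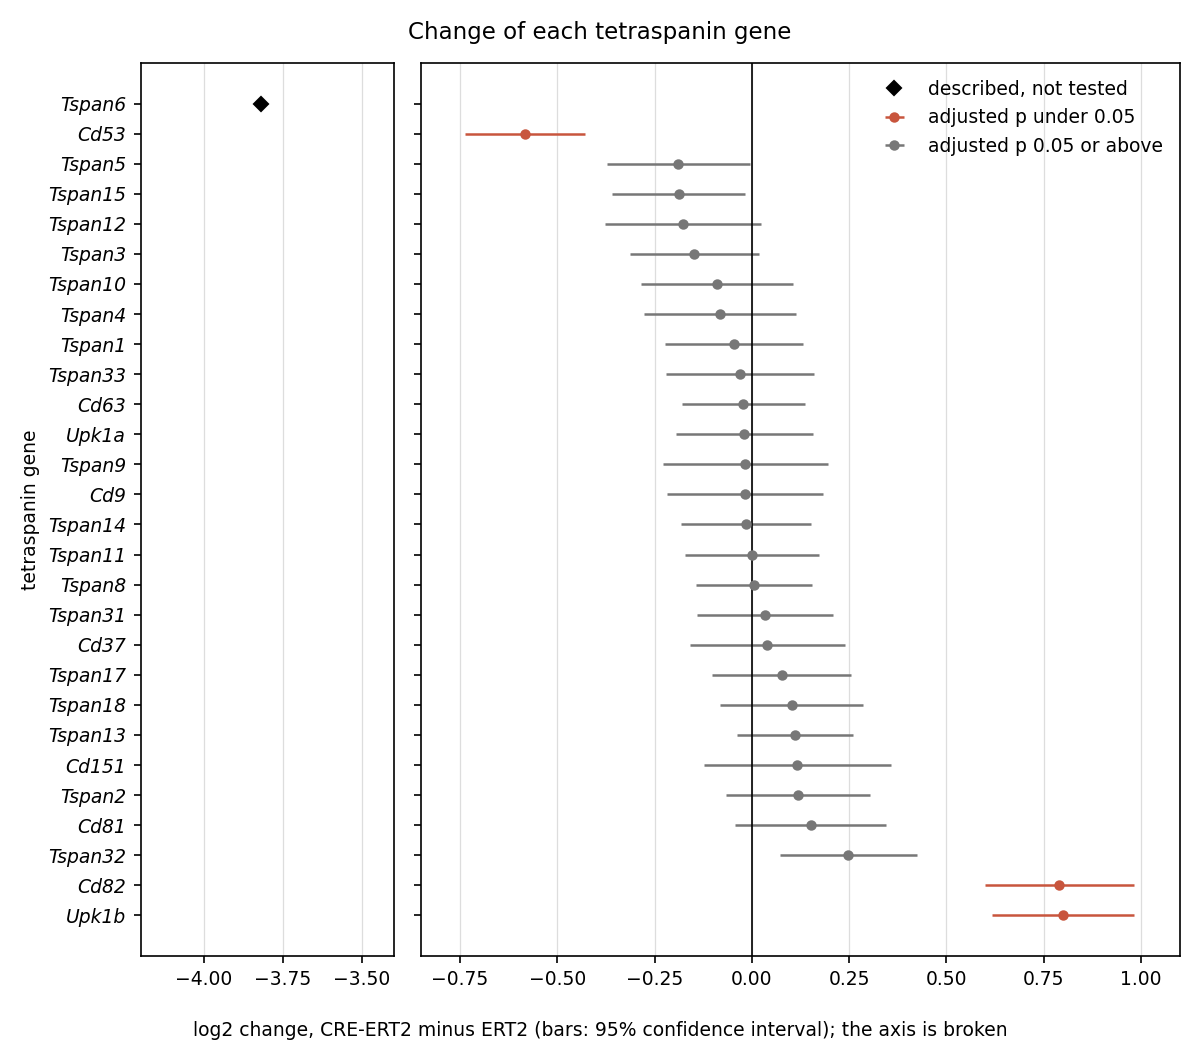
Log2 change of each of the 28 genes (x axis, CRE-ERT2 minus ERT2, with a broken axis), ordered by size, with bars for the 95% confidence interval of the limma fit on 3 against 3 arrays. The black diamond is Tspan6 (-3.82), which is described and not tested. Red points passed an adjusted p of 0.05: Cd53 (-0.58), Cd82 (0.79) and Upk1b (0.80), while the 24 grey points lie between -0.19 and 0.25.

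Upk1b, an uroplakin that builds the plaques of the bladder lining together with Upk3a, also rose. Its values were 8.11, 8.18 and 7.94 with ERT2 and 8.97, 8.85 and 8.80 with CRE-ERT2. No array of either group reached the other group. The mean rose from 8.07 ± 0.12 to 8.87 ± 0.09 (SD, n = 3 each), a change of 0.80 (0.62 to 0.98), or 1.74-fold (limma adjusted p = 9.39e-05). The ERT2 mean lay close to the array medians of 7.90 to 7.98. Detection calls were not used, so these values do not show how far Upk1b is expressed in these cells. Upk1a, the related uroplakin, had 7.91, 7.76 and 7.98 against 7.86, 7.94 and 7.79, with a difference of -0.02 (-0.19 to 0.16). Tspan12, a helper of the Norrin receptor Fzd4, had 6.99, 6.95 and 6.96 with ERT2 and 6.78, 6.99 and 6.60 with CRE-ERT2, where the CRE-ERT2 arrays differed among themselves by more than the groups did (-0.18, limma adjusted p = 0.380).

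None of the 6 TspanC8 members, which escort Adam10, passed, where 4.58% of all genes passed. The groups did not overlap for 1 of the 6, against 22.5% of all genes, and nothing is read from these counts. This was Tspan5, at 9.99, 10.04 and 9.93 with ERT2 and 9.85, 9.90 and 9.63 with CRE-ERT2. Its difference was -0.19 (-0.37 to -0.01, limma adjusted p = 0.287). Tspan15 had a similar difference of -0.19 (-0.36 to -0.02, limma adjusted p = 0.249) with 1 CRE-ERT2 array, at 7.60, above the lowest ERT2 array at 7.59. Tspan10 (-0.09), Tspan33 (-0.03), Tspan14 (-0.02) and Tspan17 (0.08) had intervals that included 0. The widest of those 4, for Tspan10, ran from -0.28 to 0.11, so with 3 arrays a group a change within that range cannot be told from 0.

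None of the 6 tetraspanins that bind integrins or mark vesicles passed, where 4.58% of all genes passed. The groups did not overlap for 1 of them, against 22.5% of all genes, so nothing is read from these counts. That 1 was Tspan3, at 10.43, 10.34 and 10.35 with ERT2 and 10.34, 10.20 and 10.14 with CRE-ERT2 (difference -0.15, -0.31 to 0.02, limma adjusted p = 0.380). Cd63, a marker of late endosomes and secreted vesicles, had values from 5.83 to 5.97 over the 6 arrays and a difference of -0.02 (-0.18 to 0.14). Cd9, a partner of integrins and a factor in membrane fusion, differed by -0.02 (-0.22 to 0.18). Cd151, which holds laminin-binding integrins, differed by 0.12 with the widest interval of the family (-0.12 to 0.36). Tspan4, known from migrasomes, differed by -0.08 (-0.28 to 0.11), and Tspan8 by 0.01 (-0.14 to 0.15) at values of 5.61 to 5.67.

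The 7 further members had differences from -0.05 to 0.12, and none passed, where 4.58% of all genes passed. Tspan13 had the tightest values, at 13.21, 13.28 and 13.23 with ERT2 and 13.37, 13.34 and 13.35 with CRE-ERT2. The groups did not overlap, and the difference of 0.11 (-0.04 to 0.26) did not pass (limma adjusted p = 0.484). Tspan2, known from myelinating cells, differed by 0.12, Tspan18 by 0.10 and Tspan31, first found as a gene amplified in sarcoma, by 0.03. Tspan11 (0.00), the platelet tetraspanin gene Tspan9 (-0.02) and Tspan1 (-0.05) completed the family. A mean at or under the limit of 7.37 was found for 5 members, namely Tspan1, Tspan8, Cd63, Tspan12 and Tspan18, and for these a change may be compressed by low signal.

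A two-sided exact permutation test gave p = 0.1 for each of the 7 members other than Tspan6 whose groups did not overlap, which is the smallest value that 3 arrays against 3 can give. Groups without overlap always give this value, so the test adds nothing to the lack of overlap. The within-group SD of the 28 genes ran from 0.01 to 0.22.

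ERT2 replicate 1 set the spread of several members, and other arrays did so for other members. On ERT2 replicate 1, 7 members were lower than on both other ERT2 arrays by at least 0.15, a gap shown by 5.57% of all genes. They were Cd151 (9.56 against 9.91 and 9.96), Cd37, Cd81, Tspan4 (11.20 against 11.45 and 11.47), Tspan31 (12.47 against 12.70 and 12.66), Tspan32 and Tspan14 (12.58 against 12.76 and 12.77). This gap was chosen after the values were seen. ERT2 replicate 2 was the lowest ERT2 array for 12 members and replicate 1 for 11. Over all genes replicate 2 was lowest for 46.6% and replicate 1 for 22.9%. Cd9 had a like gap on ERT2 replicate 2 (7.63 against 7.90 and 7.96). Tspan2 had one on ERT2 replicate 3 (9.04 against 9.33 and 9.27). Without ERT2 replicate 1 the difference of Cd81 went from 0.15 to 0.05 and that of Cd151 from 0.12 to -0.01. That of Cd37 went from 0.04 to -0.07 and that of Tspan4 from -0.08 to -0.17. None of these passed with or without it, so no direction is given for them. Without it Cd82 went from 0.79 to 0.73 and still passed (limma adjusted p = 0.00284). Tspan32 went from 0.25 to 0.18 (limma adjusted p from 0.118 to 0.326).

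**Figure D3:**
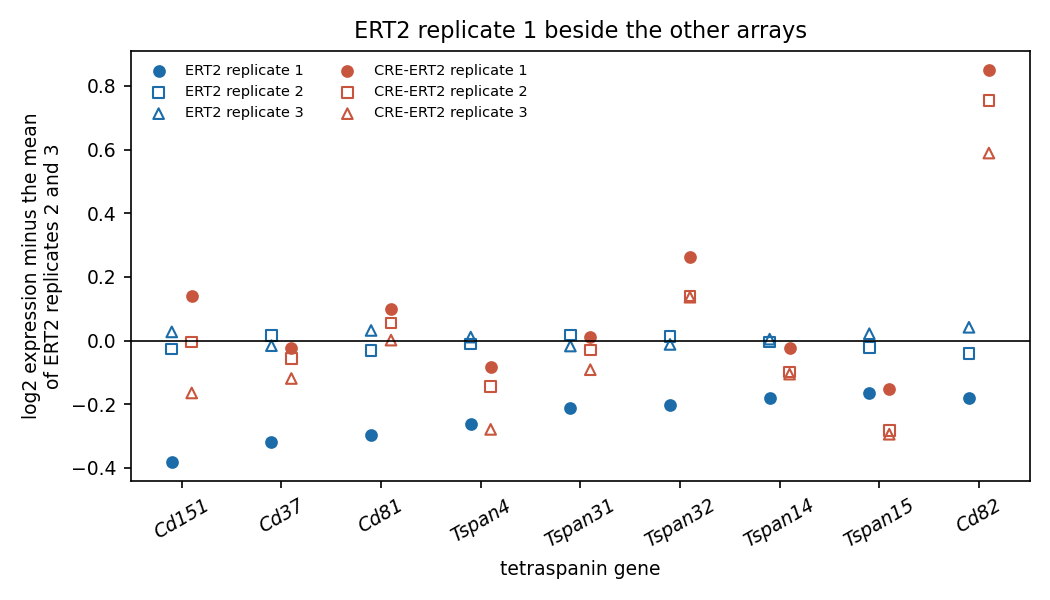
Log2 expression minus the mean of ERT2 replicates 2 and 3 (y axis) for 9 tetraspanin genes (x axis) on each array, blue for ERT2 and red for CRE-ERT2, with a filled circle for replicate 1, a square for 2 and a triangle for 3. The blue circle lies 0.14 to 0.35 below the lower of the other 2 ERT2 arrays, and of these 9 genes Cd82 and Tspan32 have all red points above all blue ones.

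Enzymes that attach palmitate to proteins were looked at because tetraspanins are palmitoylated. This list and those below were chosen with earlier results of these data known. Their calls are therefore not independent tests, and nothing is read from their counts. Over all genes tested 4.58% passed. Of 32 palmitoylation genes measured 1 fell, 0 rose and 31 did not pass, and the median change was -0.05. The 1 was Zdhhc2, the palmitoyltransferase known to modify Cd9 and Cd151. Its values were 9.72, 9.92 and 9.62 with ERT2 and 8.96, 8.63 and 8.58 with CRE-ERT2, without overlap. The mean fell by 1.03 on the log2 scale, which was 2.05-fold (95% confidence interval of the change -1.26 to -0.80, limma adjusted p = 8.53e-05). Zdhhc23 had the next smallest p, with a change of -0.25 (limma adjusted p = 0.15).

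Among adhesion molecules and receptors that associate with tetraspanins, 2 of 29 rose and 1 fell, and the other 26 missed the threshold (median change -0.04). Of all genes tested 4.58% passed. The number passing on this list was 6 without ERT2 replicate 3 and 1 with all probe sets tested. Epcam, an epithelial adhesion molecule that joins Cd9 complexes, had 9.04, 9.05 and 9.15 with ERT2 and 10.01, 9.85 and 9.97 with CRE-ERT2, a rise of 0.86 (0.69 to 1.02, limma adjusted p = 2.15e-05). Ifitm3, an antiviral membrane protein of the family that meets Cd81, rose by 0.52 (limma adjusted p = 0.0196), from 9.13, 9.64 and 9.38 to 10.01, 9.80 and 9.90. Its call was lost when ERT2 replicate 1 (0.0895) or either of CRE-ERT2 replicates 1 (0.0910) and 3 (0.102) was left out, and with all probe sets tested (0.204). Cldn1, the tight junction partner of Cd81, fell by 0.54 (limma adjusted p = 0.00214), from 6.97 ± 0.12 to 6.44 ± 0.09 (SD, n = 3 each), means under the limit for dim genes and without overlap between the groups, and did not pass with all probe sets tested (0.0577).

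Adam10, Adam17 and the surface proteins they or related proteases shed were the next list. Of its 25 genes 3 rose, 1 fell and 21 did not pass (median change -0.01), where 4.58% of all genes passed. The proteases themselves, named for their role, did not pass, with a change of 0.00 for Adam10 and -0.12 for Adam17. Cdh1, the gene of E-cadherin and a substrate of Adam10, rose by 1.64 on the log2 scale (limma adjusted p = 2.51e-07), with 9.20, 9.04 and 8.99 with ERT2 and 10.82, 10.71 and 10.63 with CRE-ERT2. Notch1, whose receptor Adam10 cleaves, rose by 0.59 (limma adjusted p = 0.000551) from 11.91, 11.69 and 11.85 to 12.43, 12.41 and 12.37. The amyloid precursor gene App, also a substrate, fell by 0.51 (limma adjusted p = 0.00115) from 8.42, 8.33 and 8.30 to 7.81, 7.92 and 7.78. Tnf, released by Adam17, rose by 0.37 (limma adjusted p = 0.0311), a call that was lost with the replicate number as a block (0.0716), with all probe sets tested (0.198) and without ERT2 replicate 1 (0.0980), CRE-ERT2 replicate 1 (0.108), 2 (0.0863) or 3 (0.0936).

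The next list held 30 genes of vesicle release and of the ESCRT machinery that buds vesicles. Of these 1 rose, 1 fell and 28 missed the threshold (median change -0.02), where 4.58% of all genes passed. The 2 that passed were syndecans, surface proteoglycans that bind the vesicle adaptor syntenin. Sdc4 rose by 0.41 (limma adjusted p = 0.0133) and Sdc1 fell by 0.44 (limma adjusted p = 0.0209). Neither passed without ERT2 replicate 1 (0.0718 and 0.0959) or with all probe sets tested (0.124 and 0.180), Sdc4 did not pass without CRE-ERT2 replicate 1 (0.0637), and Sdc1 did not pass without CRE-ERT2 replicate 3 (0.0884). Of 27 further proteins with a like number of membrane spans that are outside the naming rule, such as the MS4A and EMP families and the retinal tetraspanins Prph2 and Rom1, 1 fell and 26 did not pass (median -0.02), and the count was 0 without ERT2 replicate 1 or CRE-ERT2 replicate 3, 2 without ERT2 replicate 2 and 4 without ERT2 replicate 3. Ms4a6c fell by 0.38 (limma adjusted p = 0.0144) at values of 5.67 to 6.23, which are under the limit for dim genes, and did not pass without ERT2 replicate 1 (0.0620), without CRE-ERT2 replicate 3 (0.101) or with all probe sets tested (0.112). Emp1 had a change of 0.25 (limma adjusted p = 0.0572).

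**Figure D4:**
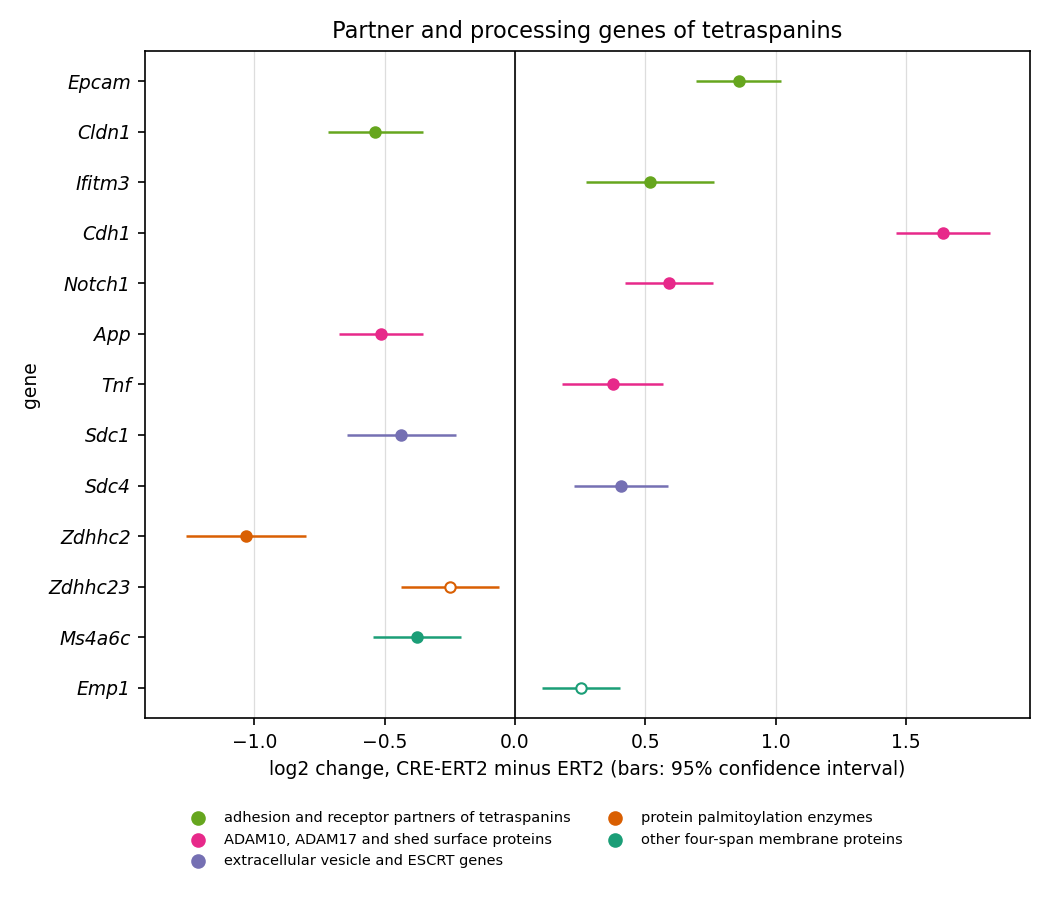
Log2 change (x axis, CRE-ERT2 minus ERT2) of the named genes (y axis) of 5 lists around tetraspanins, with bars for the 95% confidence interval on 3 against 3 arrays, filled where the adjusted p was under 0.05 and coloured by list. Cdh1 (1.64) and Epcam (0.86) lie farthest to the right and Zdhhc2 (-1.03) farthest to the left.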

How the data were processed

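Gene expression was measured on 6 Affymetrix arrays, 3 labelled ERT2 and 3 labelled CRE-ERT2. The deposited table gives a log2 value for every probe set on each array, and the log2 scale was read from the range of the values. The submitters' processing notes name RMA, a background correction and normalization method, and Partek 6.5, with no role given for either. The platform annotation gives exactly 1 gene for 21789 of 35556 probe sets, and 19938 genes were kept with the probe set of highest mean. Detection calls, scan dates and the array's genome build were not used here.

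The group term alone was fitted with limma (version 3.58.1, R 4.3.3) through lmFit and eBayes. Two-sided p-values were adjusted by the Benjamini-Hochberg method over the 19938 genes, with a threshold of 0.05. No values were filtered. The members and gene lists were chosen with earlier results of these data known. Members that passed or whose groups did not overlap are given array by array. From each list up to 5 passing genes are named, with those of smallest p added up to 2. The neighbouring genes and the array gap were chosen after the values were seen. Promoter sequences are from RefSeq (GRCm38.p6). The alternatives were 14 settings: a further quantile normalization, centring arrays, leaving out dim genes, the mean of probe sets, testing every probe set, array weights, a trended and robust variance, a replicate block, and leaving out each array.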

Additional observations from a re-analysis of the deposited data

How the results depend on the processing

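Cd53, Cd82 and Upk1b passed under each of the 14 alternatives, and 0 of the 24 members that had not passed did so under any in which they were tested. The log2 change of Tspan6, not tested, ranged from -3.85 to -3.78. Those of the others ranged from -0.62 to -0.55 for Cd53, 0.73 to 0.86 for Cd82 and 0.73 to 0.85 for Upk1b, with limma adjusted p of at most 0.0148 for Cd53, 0.0191 for Cd82 and 0.0148 for Upk1b. The count over all genes moved more, from 914 to 298 when all probe sets were tested, 1544 with a trended and robust variance and 589 with the replicate number as a block, and it ran from 453 to 979 when 1 array was left out. The share of higher calls, 50.2%, was 60.9% after a further quantile normalization, 63.1% with all probe sets, 42.9% without dim genes and 38.0% with a trended and robust variance, and ran from 42.7% to 63.1% when 1 array was left out. Without the replicate pairing being stated in the labels, same-numbered arrays did not deviate together (r over genes of -0.11, -0.37 and -0.07), no array correlated best with its own number, and the replicate block changed no call of a tetraspanin. For the named genes of the lists, 20 of 152 repeats of a call under an alternative were lost and 0 reversed, and Emp1 passed under 4 settings. Unnamed list genes also passed under some, so that the adhesion list ran from 1 to 6 genes passing and the list of other membrane proteins from 0 to 4, both highest without ERT2 replicate 3. With 3 arrays a group and no detection calls, changes of dim genes are the least certain.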
